A study of Mus musculus with 28 samples.

Results

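Adipocyte hormones and lipid droplet genes were followed in the hearts of 28 mice, to see how far they moved together from array to array, as they would be looked at when fat tissue in a heart sample is in question. The genes were listed by name, with earlier results of these data known, as Adipoq, Retn, Lep, Cidec, Lipe, Cfd and Plin1. Probe sets named by 1 gene symbol were present for 5 of these 7 genes, out of 18193 genes named on the arrays. Cfd, which encodes the complement protease adipsin, and Plin1, which encodes the coat protein of the adipocyte lipid droplet, were not analysed here, since the probe annotation used gave neither of them a probe set.

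The 28 arrays formed 4 groups of 7. They were del337TR mice given WY14643, control mice given WY14643, untreated del337TR mice and untreated control mice. WY14643 activates the nuclear receptor PPARalpha, and del337TR is a mutant strain used as a model of thyroid hormone resistance. Age, sex, dose, length of treatment, background strain and the dissection of the heart were not stated in the labels, and RNA came from frozen tissue labelled as mouse heart.

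White adipocytes store triglyceride in a large lipid droplet and secrete hormones into the blood. Adiponectin, leptin and resistin are such hormones, the enzyme hormone-sensitive lipase breaks stored lipid down when fasting or adrenergic signals call for it, and Cidec lets small droplets merge into large ones. The heart is bordered by fat around the vessels, on the epicardium in some species and in the mediastinum, so adipocyte transcripts in a heart sample can come from such tissue, while Lipe is also used by cardiomyocytes themselves.

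Signals were linear intensities scaled to a common mean on each array, and only the same probe set was compared between arrays. Cardiomyocyte genes were high on every array, with Myh6, the main myosin heavy chain of the adult mouse heart, between 11949.2 and 20931.5. Atrial genes varied far more. Myl4, an atrial myosin light chain, ran from 106.9 to 14212.5 over the 28 arrays, and the summed signal of 6 atrial markers was 9342.2 to 54054.1 in treated del337TR hearts, 3679.5 to 32010.7 in treated control hearts, 12899.4 to 51912 in untreated del337TR hearts and 9599.9 to 35764 in untreated control hearts. None of the 6 atrial markers passed the threshold in any comparison. In each of the 4 groups replicate 7 was the array least like the others, with a correlation to the rest of its group between 0.933 and 0.944. Xist, which is transcribed from the inactive X chromosome, was high on 10 arrays (696.5 to 982) and low on 18 (92.3 to 193.5), with 1 high array among treated del337TR hearts, 3 among treated control hearts, 4 among untreated del337TR hearts and 2 among untreated control hearts.

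The promoters of Adipoq and Lep are shown because both encode hormones of the adipocyte and because motifs read by adipocyte factors of the C/EBP family and by CCAAT-binding proteins could be looked for in the same 300 bases. Both sequences are from RefSeq (build GRCm38.p6), run 5′ to 3′ on the strand of the gene from 250 bases before to 50 bases after the start, and have motif matches in capitals. The Adipoq window lies at chr16:23146286-23146585 on the plus strand, before a protein-coding gene that spans bases 23146536 to 23157968 of chromosome 16. The Lep window lies at chr6:29059971-29060270 on the plus strand, before a protein-coding gene that spans bases 29060221 to 29073876 of chromosome 6.
Adipoq: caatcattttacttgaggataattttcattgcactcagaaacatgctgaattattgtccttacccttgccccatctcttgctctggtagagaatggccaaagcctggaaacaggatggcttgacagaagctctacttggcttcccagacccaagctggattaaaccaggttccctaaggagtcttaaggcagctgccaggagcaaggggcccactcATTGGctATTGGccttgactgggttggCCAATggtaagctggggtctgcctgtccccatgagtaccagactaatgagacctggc
Lep: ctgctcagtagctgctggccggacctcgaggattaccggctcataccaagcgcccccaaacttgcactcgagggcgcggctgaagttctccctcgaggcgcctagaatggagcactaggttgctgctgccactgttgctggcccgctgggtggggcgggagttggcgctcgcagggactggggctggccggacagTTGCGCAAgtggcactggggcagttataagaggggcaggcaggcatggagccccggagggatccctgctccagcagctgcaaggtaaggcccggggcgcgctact
In the Adipoq window CCAAT was found at -7 on the gene's strand and at -34 and -27 on the other strand, where it reads ATTGG. This motif on either strand was present in 37.4% of 32851 mouse promoter windows of this length. In the Lep window TTGCNNAA, a C/EBP-like motif that is found in 10.8% of windows, had a match at -55 whose letters read the same on both strands. The same motif had a match at -198 in the second of 2 Cidec windows (chr6:113434715-113435014, minus strand), and none of the other windows of Retn, Cidec and Lipe held a match to it. The letters TATAAA (13.6% of windows), AGGTCA (16.3%) and a pair of AGGNCA in the same direction with 1 base between (0.381%) were in no window of these 5 genes.

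Adipoq encodes adiponectin, which is a hormone that raises insulin sensitivity. Its lowest, median and highest signals were 16.9, 33.2 and 65.6 in treated del337TR hearts, 39.7, 67 and 152 in treated control hearts, 40.1, 90.7 and 215 in untreated del337TR hearts, and 17.5, 33.3 and 179.4 in untreated control hearts. All 4 groups overlapped. Treated del337TR and untreated control hearts had nearly the same low median, and untreated control hearts also held the second highest array. The means were 40.5 ± 19.0 in treated del337TR hearts, 74.3 ± 37.1 in treated control hearts, 100.03 ± 54.7 in untreated del337TR hearts and 62.3 ± 58.3 in untreated control hearts (SD, n = 7 each).

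Retn encodes resistin, a secreted protein that in mice is made mainly by white adipocytes. Its lowest, median and highest signals were 34.5, 65.8 and 154.3 in treated del337TR hearts, 72.3, 99.5 and 177.4 in treated control hearts, 98.9, 128.3 and 231.6 in untreated del337TR hearts, and 32.3, 104.4 and 183.1 in untreated control hearts. The 3 groups other than treated del337TR had medians between 99.5 and 128.3, and the single lowest array was an untreated control. Lep encodes leptin, which reports the size of fat stores to the brain. Lep signals were 9.5, 17.7 and 44.4 in treated del337TR hearts, 2.1, 10.5 and 29 in treated control hearts, 9.9, 12.4 and 56.3 in untreated del337TR hearts, and 6.5, 20.9 and 40.7 in untreated control hearts, in the same order of lowest, median and highest. High and low Lep arrays were found in every group.

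Cidec encodes the droplet fusion protein. Its lowest, median and highest signals were 1.7, 5.1 and 23.4 in treated del337TR hearts, 3.3, 25 and 32.8 in treated control hearts, 8.6, 31.1 and 40.1 in untreated del337TR hearts, and 2, 23.2 and 51.8 in untreated control hearts. Low arrays were found in all groups, most of them in treated del337TR hearts. The probe sets of Cidec and Lep were dim, at percentiles 19.3 and 21.9 of the mean log2 signal of all probe sets. Adipoq was at percentile 47.6, Retn at 59.2 and the brighter Lipe probe set at 84.7. No detection call was used, and the share of background in these signals was not tested.

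For Lipe, which encodes hormone-sensitive lipase, the highest signal of its brighter probe set was 2.37 times the lowest. That probe set had 279.4, 392 and 536.2 as lowest, median and highest signals in treated del337TR hearts, 363.1, 518 and 564.9 in treated control hearts, 421.9, 479.7 and 604.1 in untreated del337TR hearts, and 345.6, 620.9 and 663 in untreated control hearts. Its second probe set, between 7.1 and 94 over the 28 arrays, averaged 44.0 ± 27.5, 34.8 ± 18.6, 30.2 ± 8.02 and 31.6 ± 12.8 in treated del337TR, treated control, untreated del337TR and untreated control hearts (SD, n = 7 each). The second probe set had its highest mean in the group where the brighter one had its lowest.

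**Figure D1:**
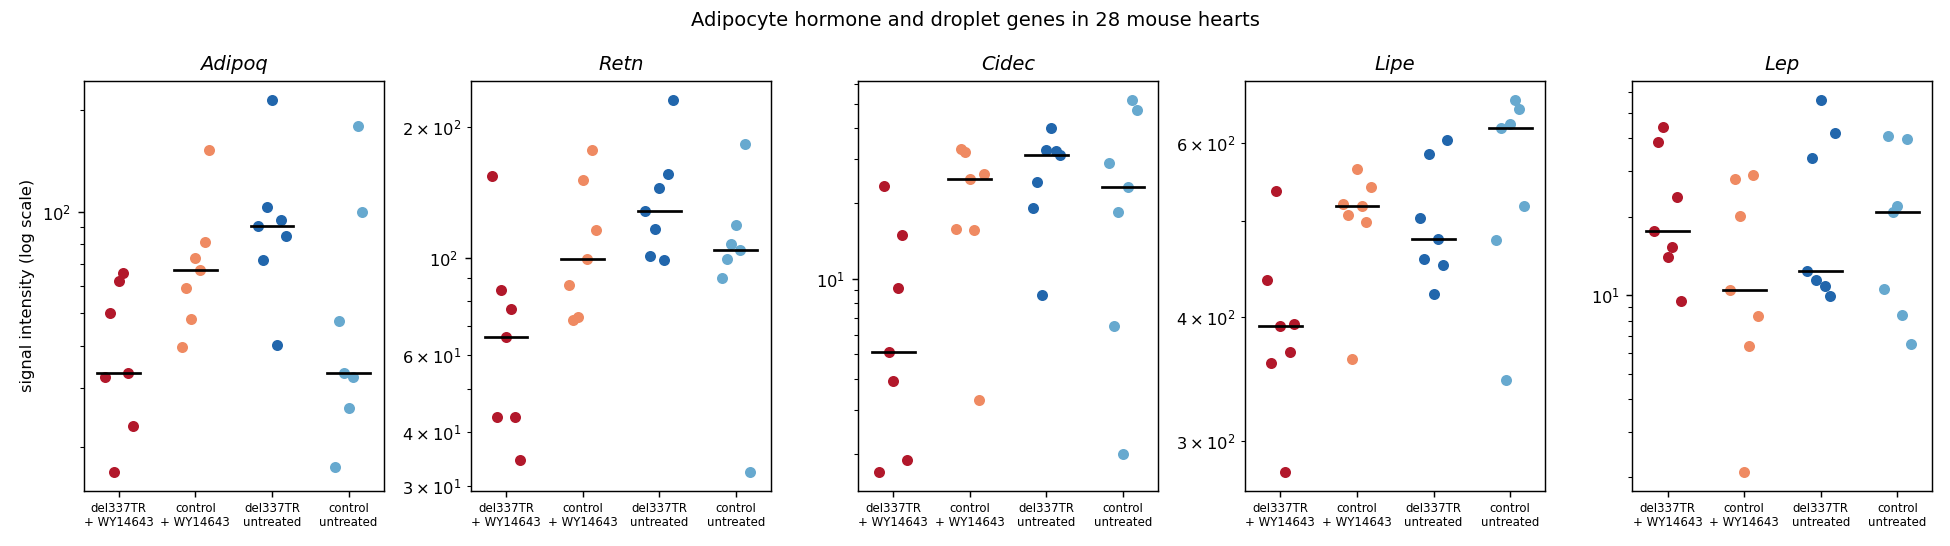
Signal intensity (log scale) of the 5 genes in each of 28 hearts, with 1 point per array and a black line at the group median, and groups of 7 arrays. Adipoq, Retn, Cidec and Lipe have low points in treated del337TR hearts, for example Cidec at a median of 5.1 against 31.1 in untreated del337TR hearts, and the groups overlap for all 5 genes.

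The first comparison asked how hearts of del337TR mice given WY14643 differed from those of untreated del337TR mice. Adipoq, Retn, Cidec and Lipe were lower in treated hearts at an unadjusted p under 0.05 and Lep was not, but no gene passed the threshold over all 45037 probe sets. The log2 difference was -1.30 ± 0.44 for Adipoq (SE, limma, unadjusted p = 0.00619, adjusted p = 0.767), which is a fold of 0.407. For Retn it was -1.08 ± 0.33 (limma unadjusted p = 0.00279, adjusted p = 0.767). For Cidec it was -2.09 ± 0.67 (limma unadjusted p = 0.00468, adjusted p = 0.767). For Lipe it was -0.35 ± 0.14 (limma unadjusted p = 0.0220, adjusted p = 0.830) with its brighter probe set. Its second probe set had a difference of 0.34 ± 0.42 (SE), and the mean of its 2 probe sets gave -0.0070. Lep differed by 0.04 ± 0.56 (SE). In this comparison limma called 0% of all probe sets, and 5.78% had an unadjusted p under 0.05, beside 4 of the 5 genes. The median difference of the 5 genes was -1.08, beside 0.02 over all probe sets. Markers of other cells stood beside this as follows. Of 9 fibroblast markers, 3 were higher and 6 lower, and 1 had an unadjusted p under 0.05, Tcf21 at -0.45 ± 0.15. Of 9 endothelial markers, 4 were higher and 5 lower, and 1 had such a p, Vwf at -0.57 ± 0.21. Of 6 smooth muscle markers, 2 were higher and 4 lower, and 1 had such a p, Tagln at -0.75 ± 0.32 (log2, SE). Of 10 cardiomyocyte markers 9 had a positive difference, with 0 at an unadjusted p under 0.05. Summed signals of treated and untreated del337TR hearts were 20950.6 to 25950.2 and 22851 to 27603.8 for the fibroblast list, 4199.2 to 5903.8 and 4505.6 to 7177.1 for the endothelial list, and 116468 to 189869 and 118454 to 150776 for the cardiomyocyte list. The part of these cells in the differences of the 5 genes was not tested. Whether the differences came from adipocytes was not tested, nor was the part of background signal. The part of RNA quality was not tested beyond a covariate given below. In these pieces of tissue fewer adipocytes and less RNA per adipocyte also cannot be told apart.

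The 4 genes held their sign in the alternatives run for this comparison. Adipoq was between -1.49 and -0.99, Retn between -1.29 and -0.80, Cidec between -2.43 and -0.82 and Lipe between -0.43 and -0.0070 on the log2 scale. Several alternatives could not move a difference. These were leaving out a control array, the filter on dim probe sets, eBayes with trend, the replicate block and only the groups compared. Cidec was not in the fit with the dim filter. Without the 4 arrays least like their groups, 3 of the 5 genes had an unadjusted p under 0.05.

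In controls, WY14643 against no treatment had differences of either sign. The log2 differences (limma, SE) were 0.58 ± 0.44 for Adipoq, 0.14 ± 0.33 for Retn, 0.07 ± 0.67 for Cidec, -0.13 ± 0.14 for Lipe and -0.64 ± 0.56 for Lep, and 0 of the 5 had an unadjusted p under 0.05, beside 6.75% of all probe sets, with 0% called. The value of Retn was -0.12 without untreated control replicate 7. Without untreated control replicate 6, 1 of the 5 genes had an unadjusted p under 0.05. The difference between the WY14643 effects, del337TR minus control, was tested directly. It was -1.87 ± 0.62 for Adipoq (SE, limma unadjusted p = 0.00530, adjusted p = 0.956), -1.22 ± 0.46 for Retn and -2.16 ± 0.95 for Cidec, with 3 of 5 genes at an unadjusted p under 0.05, beside 4.9% of all probe sets and 0% called. Lipe, at -0.22 ± 0.20, and Lep, at 0.68 ± 0.80, were not among the 3. The count of 3 was 1 without the 4 arrays least like their groups.

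Between the strains, untreated del337TR hearts differed from untreated control hearts in Adipoq by a log2 difference of 0.97 ± 0.44 (SE, limma unadjusted p = 0.0344, adjusted p = 0.999). The other log2 differences were 0.49 ± 0.33 for Retn, 0.53 ± 0.67 for Cidec, -0.14 ± 0.14 for Lipe and 0.21 ± 0.56 for Lep (SE). This made 1 of 5 genes at an unadjusted p under 0.05, beside 4.01% of all probe sets, of which 0.00222% (1 probe set) was called. The count for the 5 genes was 0 without any 1 of untreated control replicates 1, 3, 4 or 5 or untreated del337TR replicates 3 or 4. It was also 0 with Xist as a covariate, with the atrial covariate and with only the 2 groups compared.

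With WY14643 the strain difference had a negative sign for Adipoq, Retn, Cidec and Lipe. Log2 differences of treated del337TR against treated control hearts were -0.90 ± 0.44 for Adipoq, -0.73 ± 0.33 for Retn, -1.63 ± 0.67 for Cidec, -0.36 ± 0.14 for Lipe and 0.90 ± 0.56 for Lep (SE). The limma unadjusted p was under 0.05 for 4 of 5 genes, beside 8.86% of all probe sets and 0% called. The lowest adjusted p of the 5 was 0.475, for Lipe, whose second probe set had a difference of 0.35 ± 0.42 and whose probe sets had a mean difference of -0.0023. This comparison shares the 7 treated del337TR arrays with the treatment comparison in del337TR, so the low values of that group enter both. The count of 4 was 0 without the 4 arrays least like their groups, 1 without treated del337TR replicate 7, and 2 without treated del337TR replicate 1 or 6 or treated control replicate 4, 6 or 7. It was 2 with Xist as a covariate and 2 with array weights.

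Averaged over the strains, WY14643 against no treatment gave log2 differences of -1.01 ± 0.48 for Cidec and -0.24 ± 0.10 for Lipe (SE), the 2 of 5 genes with an unadjusted p under 0.05, beside 7.5% of all probe sets. That count ran from 1 to 3 when 1 array was left out, differing from 2 for 13 of the 28 arrays, and was 1 after quantile normalization, with the replicate block, with the mean of a gene's probe sets and without the 4 arrays least like their groups. The del337TR effect averaged over treatments reached it for Lipe alone, at -0.25 ± 0.10 (SE), beside 7.66%. Its second probe set had a difference of 0.18 ± 0.29, and the count was 0 with the mean of its probe sets. Both averages had 0% of all probe sets called by limma.

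**Figure D2:**
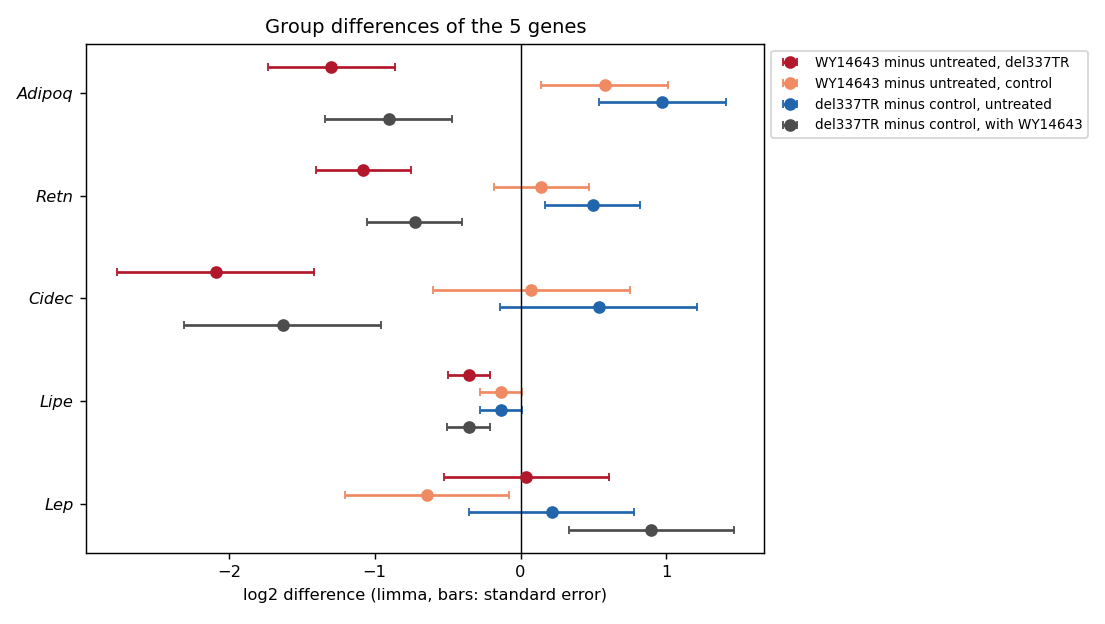
Log2 differences of the 5 genes in 4 comparisons, with points for limma estimates and bars for 1 standard error. For Adipoq, Retn and Cidec the treatment difference in del337TR lies below 0 (-1.30, -1.08 and -2.09), and the same difference in controls lies between 0.07 and 0.58.

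Array by array the 5 genes were only loosely related. After group means were removed, the 10 pairs had Pearson correlations from -0.33 (Retn with Cidec) to 0.31 (Retn with Lipe) over 28 arrays, and the lowest adjusted p over the 10 was 0.533 (permutation test, 100000 permutations of arrays within groups, two-sided). Adipoq had r = 0.28 with Cidec (rho = 0.19, permutation p = 0.224 and 0.363), and r was 0.28 without the 2 arrays farthest from the median Adipoq signal. With Retn it had r = 0.12 (rho = 0.19), with Lep r = 0.11 (rho = 0.11) and with Lipe r = -0.03 (rho = -0.07). Without the 2 farthest arrays Adipoq and Lipe had r = 0.18. Retn and Lipe had r above 0 in 4 of 4 groups, and Cidec and Lipe in 0 of 4.

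With group means kept, Adipoq had r = 0.45 with Cidec (unadjusted permutation p = 0.0157) and 0.37 with Retn (unadjusted permutation p = 0.0545), and Retn had r = 0.45 with Lipe (unadjusted permutation p = 0.0159). Within groups, Adipoq and Cidec had r = 0.38 in treated del337TR hearts, -0.09 in treated control hearts, -0.19 in untreated del337TR hearts and 0.50 in untreated control hearts. The pooled relation with group means kept was thus not seen in every group. The p values with group means kept are those before adjustment for the 10 pairs. Differences between groups, such as the low values in treated del337TR hearts, also enter these pooled r values.

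A few arrays carried high signals of several of the genes. Untreated control replicate 6 was among the 7 highest arrays for 5 of 5 genes, with 179.4 for Adipoq, 183.1 for Retn, 51.8 for Cidec, 648.7 for Lipe and 39.6 for Lep. Untreated del337TR replicate 4, highest of all for Adipoq (215) and Lep (56.3), was among the 7 highest for 4 of 5. At the other end, treated del337TR replicate 7 was among the 7 lowest for 5 of 5, with 23.2 for Adipoq, 34.5 for Retn, 1.9 for Cidec, 394.3 for Lipe and 9.5 for Lep. The genes also parted on single arrays, as in untreated control replicate 7, where Adipoq (100) and Cidec (47) were high while Retn (32.3) was the lowest of all 28. Both replicate 7 arrays named here were the ones least like the rest of their groups. Treated del337TR replicate 7 also had the highest array median (77.8) and the highest Myl4 (14212.5) of all 28. Of the 7 highest arrays for Adipoq, 4 were among the 7 highest for Cidec, 3 for Retn, 2 for Lipe and 2 for Lep. Some sharing arises by chance between unrelated genes, as each such set holds 7 of the 28 arrays, and these counts were not tested. The ranks also keep differences between groups. The Lipe signal of treated del337TR replicate 7 (394.3), for example, was near its group's median of 392.

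**Figure D3:**
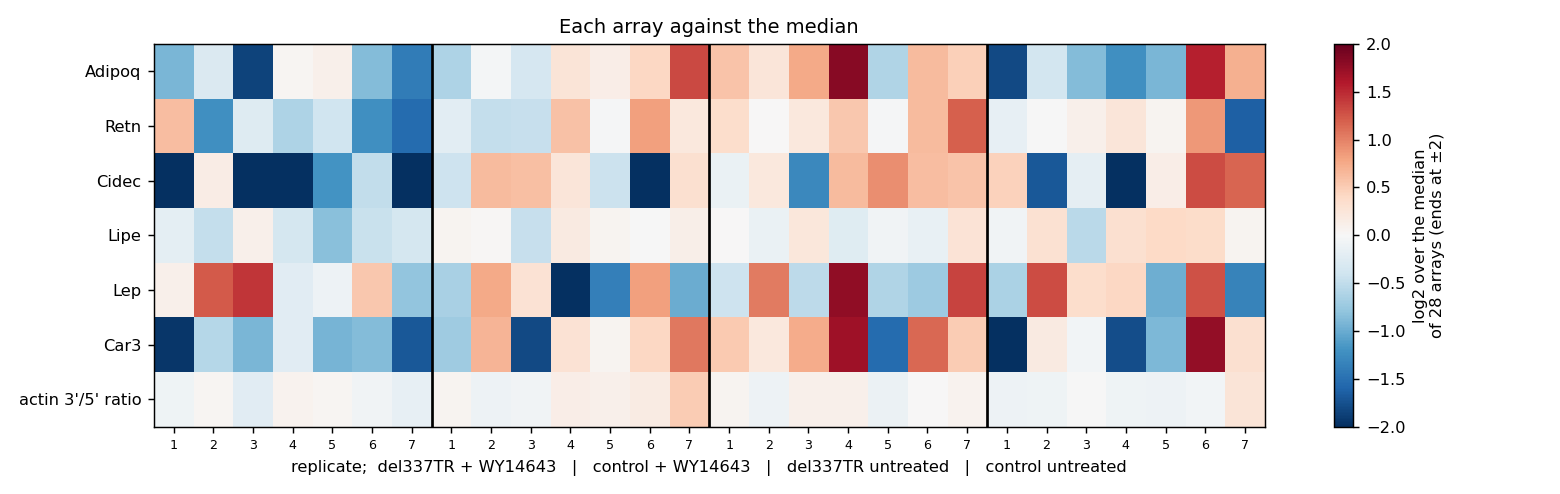
Each column is 1 array, grouped by treatment and strain, and colour gives the log2 signal over the median of 28 arrays, ending at 2 in either direction; the rows are the 5 genes, Car3 and the ratio of 2 actin control probe sets. Adipoq and Car3 share their pattern of high and low arrays, and untreated control replicate 6 is high in all 5 genes.

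The gene that followed Adipoq most closely was Car3, which encodes carbonic anhydrase III, an enzyme abundant in mouse adipocytes and skeletal muscle. With groups in the model, log2 Car3 changed by 1.04 ± 0.14 per log2 unit of Adipoq (SE, limma adjusted p = 0.00719 over 45036 probe sets), and a second Car3 probe set gave 1.05 ± 0.17 (limma adjusted p = 0.0338). Over 28 arrays r was 0.83 and rho 0.82, and r was 0.86 without the 2 arrays farthest from the median Adipoq signal. Within groups r was 0.51 in treated del337TR hearts, 0.75 in treated control hearts, 0.93 in untreated del337TR hearts and 0.92 in untreated control hearts. Lowest, median and highest Car3 signals were 100.7, 204.6 and 328.9 in treated del337TR hearts, 111, 470.6 and 806.4 in treated control hearts, 132.9, 555.7 and 1251.1 in untreated del337TR hearts, and 62.3, 370.2 and 1311.5 in untreated control hearts. The array with the highest Car3 was untreated control replicate 6, which also ranked second for Adipoq.

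In this fit 3 probe sets passed the threshold, which is 0.00666% of those tested, and 6.18% had an unadjusted p under 0.05. The third of the 3 had no gene symbol in the annotation used. None of the other 4 genes reached an unadjusted p under 0.05, with slopes per log2 unit of Adipoq of 0.09 ± 0.15 for Retn, 0.44 ± 0.30 for Cidec, -0.01 ± 0.07 for Lipe and 0.14 ± 0.26 for Lep (SE). The count of 3 was 0 without untreated control replicate 1 or 6, and 1 without untreated control replicate 4 or any 1 of treated control replicates 4, 5, 6 and 7. It was also 0 without the 4 arrays least like their groups.

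After Car3, the genes most like Adipoq by r over 28 arrays with group means removed were Cyp2e1 (0.71), a cytochrome P450 found in liver and fat, Pde1b (0.70), Paip1 (0.69), Dus3l (0.69), Mcl1 (0.69), Ifi27l2a (0.69), Ice2 (0.68), Ubn2 (0.67), Itga8 (0.66) and Mylk (0.65). The 5 least like it were Arl2bp (-0.81), Srf (-0.77), Ccng1 (-0.77), Dnaja4 (-0.77) and Ak1 (-0.75). None of these passed the threshold on the slope, and among 34944 probe sets with 1 symbol ranked by r, Cidec stood at place 3738, Retn at 10822, Lep at 11398 and Lipe at 19942.

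The ratio of the 3′ to the 5′ control probe set for actin, a sign of how complete the labelled RNA was, moved with Adipoq. Over 28 arrays with group means removed, log2 Adipoq and the log2 ratio had r = 0.67 (permutation p = 8e-05, adjusted p = 0.00192 over 24 relations of 6 genes and 4 array measures) and rho = 0.79 (permutation p = 2e-05), and r was 0.60 without the 2 arrays farthest from the median. Within groups r was 0.98 in treated del337TR hearts, 0.87 in treated control hearts, 0.82 in untreated del337TR hearts and 0.46 in untreated control hearts. The ratio averaged 1.23 ± 0.09 in treated del337TR hearts, 1.39 ± 0.21 in treated control hearts, 1.29 ± 0.08 in untreated del337TR hearts and 1.25 ± 0.12 in untreated control hearts (SD, n = 7 each). For the other 4 genes r with the ratio ran from -0.24 (Lep) to 0.12 (Cidec), and for Car3 it was 0.49 (adjusted permutation p = 0.162). The corresponding ratio for Gapdh had r = 0.09 with Adipoq.

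With the actin ratio as a covariate, Adipoq differed by -1.01 ± 0.34 between treated and untreated del337TR hearts and by -0.23 ± 0.36 between treated del337TR and treated control hearts (log2, SE). The count at an unadjusted p under 0.05 was then 4 of 5 in the first of these comparisons, 1 of 5 in the second and 1 of 5 for the difference of the WY14643 effects. Car3 kept a slope of 1.14 ± 0.20 on Adipoq (SE, limma adjusted p = 0.121), and 0 probe sets passed the threshold. Its adjusted p ran from 0.000535 to 0.315 over 41 alternatives and was over 0.05 in 6 of them.

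Arrays with high Xist had a median Adipoq of 83 against 44.1 on arrays with low Xist, and a median Retn of 122.3 against 88.6, with all groups pooled. The groups differ in both Xist and these genes. Within groups the Adipoq medians on high-Xist and low-Xist arrays were 62.4 (1 array) and 32.75 in treated del337TR hearts, 81.2 and 53.7 in treated control hearts, 92.55 and 71.9 in untreated del337TR hearts, and 40.3 and 32.3 in untreated control hearts. For Retn they were 65.8 and 59.95, 116.3 and 80.1, 150.75 and 101.5, and 103.85 and 104.4 in the same groups. Pooled medians on high-Xist and low-Xist arrays were 18.8 and 23.3 for Cidec, 501.1 and 493.5 for Lipe, and 17.45 and 16.5 for Lep. The mean log2 signal of the atrial genes Myl4, Myl7 and Sln had r = 0.36 with Adipoq (adjusted permutation p = 0.510). The part of RNA quality, sex or chamber in the results for Adipoq was not tested beyond these covariates.

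**Figure D4:**
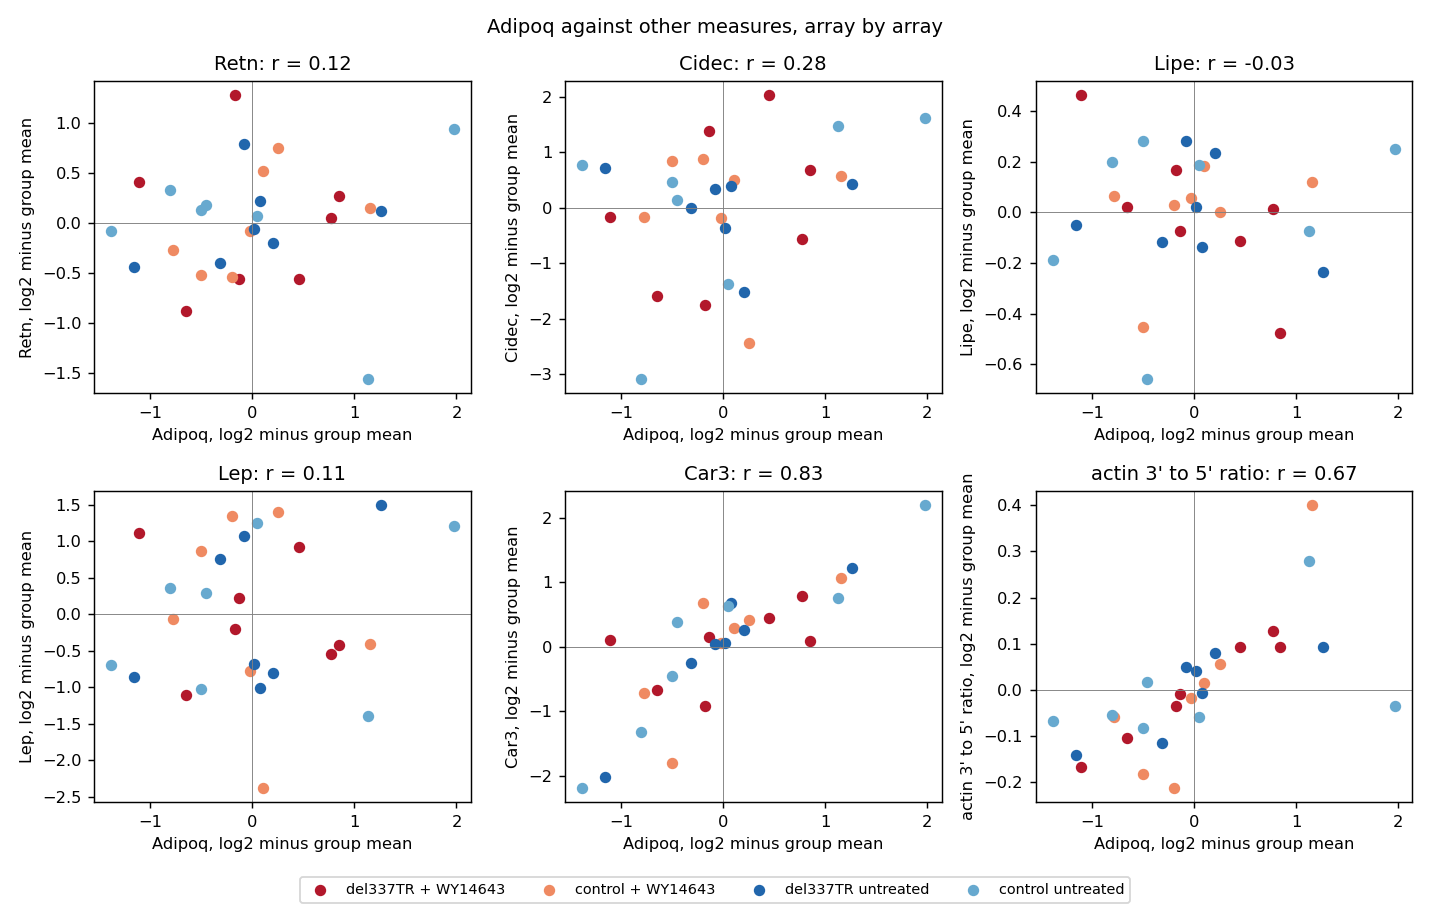
Log2 Adipoq against log2 Retn, Cidec, Lipe, Lep, Car3 and the actin 3′ to 5′ ratio, all minus their group means, with 1 point per array coloured by group. Car3 (r = 0.83) and the actin ratio (r = 0.67) are high where Adipoq is high, and the other 4 genes scatter, with r from -0.03 to 0.28.

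Other genes of the adipocyte were read from a list of 26, of which 24 had a probe set. On the Adipoq slope 20 of the 24 were above 0, with a median slope of 0.08, beside 0.0052 over all probe sets. Of the 24, 1 passed the threshold (Car3), beside 0.00666% of all probe sets, and 5 had an unadjusted p under 0.05, beside 6.18%. The 5 were Car3, Rbp4 (r = 0.63), which carries retinol in blood, Nnat (r = 0.48), Aoc3 (r = 0.45), an amine oxidase of the adipocyte surface, and Plin4 (r = 0.41), a droplet coat protein. Fabp4, the fatty acid binding protein of adipocytes, which capillary endothelium and macrophages also make, averaged 9425 ± 1946 in treated del337TR hearts, 9430 ± 1238 in treated control hearts, 9253 ± 1173 in untreated del337TR hearts and 8974 ± 853 in untreated control hearts (SD, n = 7 each). Fabp4 lay between 7398.4 and 13714.3 on all 28 arrays and had r = 0.02 with Adipoq.

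In the treatment comparison in del337TR hearts, 14 of the 24 had a negative difference, 0 passed the threshold and 2 had an unadjusted p under 0.05, a share near the 5.78% of all probe sets. These were Pparg, the nuclear receptor that drives adipocyte formation, at -0.96 ± 0.32, and Car3 at -1.49 ± 0.55 (log2, SE). Pparg averaged 43.2 ± 25.5 in treated and 75.03 ± 25.6 in untreated del337TR hearts (SD, n = 7 each). The median of the 24 was -0.08, beside 0.02 over all probe sets.

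Among 17 measured lipid droplet and lipolysis genes, 8 had a negative difference in that comparison and 0 passed the threshold. G0s2, which inhibits the lipase Pnpla2, was the 1 gene of 17 at an unadjusted p under 0.05, a share close to the 5.78% of all probe sets, at -1.20 ± 0.33 (log2, SE). It averaged 247 ± 82.8 in treated and 643 ± 431 in untreated del337TR hearts (SD, n = 7 each). In control hearts G0s2 was also lower with WY14643, at 265 ± 91.4 in treated and 467 ± 157 in untreated hearts (SD, n = 7 each). On the Adipoq slope 1 of the 17 had an unadjusted p under 0.05, beside 6.18% of all probe sets, which was Fitm2 (r = 0.45), a gene that helps droplets bud.

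Of 11 genes of fatty acid synthesis, 9 had a negative difference in the same comparison and 0 passed. Fasn, the fatty acid synthase, differed by -0.54 ± 0.16 and Scd1, which desaturates fatty acids, by -0.57 ± 0.19 (log2, SE). They were the 2 of 11 at an unadjusted p under 0.05, beside 5.78% of all probe sets. Both had r = 0.60 with Adipoq, while Me1, which supplies NADPH for this synthesis, had r = -0.51, and the 11 genes had a median r of 0.13 with 7 above 0. Of 10 brown adipocyte genes 0 passed in this comparison or on the slope. They had a median r of 0.057 with Adipoq, with 5 above 0 and the lowest at -0.15 for Ppargc1a. At the high end Ucp1, the uncoupling protein of brown fat, had r = 0.47 with Adipoq at signals from 5.1 to 112.4, and Zic1 had r = 0.49 at signals from 1.1 to 39. Both highest signals were on untreated control replicate 6, which had 179.4 for Adipoq. The next highest Ucp1 signal was 53.4, on treated del337TR replicate 4.

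Among 7 receptors of these hormones, 0 passed the threshold in any comparison. Adipor1 averaged 2829 ± 128 in treated del337TR hearts, 2845 ± 245 in treated control hearts, 2916 ± 212 in untreated del337TR hearts and 2832 ± 188 in untreated control hearts (SD, n = 7 each). Cdh13, which binds adiponectin on vessel and muscle cells, had r = -0.53 with Adipoq, and Lepr, the leptin receptor, had r = 0.39.

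Of the marker lists of other cells, none had a gene past the threshold on the Adipoq slope, and 6.18% of all probe sets had an unadjusted p under 0.05. Of 6 smooth muscle markers, Tagln (r = 0.57), Myh11 (0.50) and Cnn1 (0.48) had positive slopes and Smtn (-0.64) a negative slope at an unadjusted p under 0.05, and 0 passed the threshold. The summed signal of the 6 was 10405.5 to 13785 in treated del337TR hearts, 10780.1 to 13627 in treated control hearts, 8963 to 13751.2 in untreated del337TR hearts and 9799.4 to 13131.7 in untreated control hearts. Of 10 mesothelial and epicardial markers 8 had a positive slope and 0 had an unadjusted p under 0.05, and of 11 leukocyte markers 10 had a positive slope, with Lyz2 (r = 0.48) at an unadjusted p under 0.05. The part of these cells in the level of Adipoq was not tested.

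**Figure D5:**
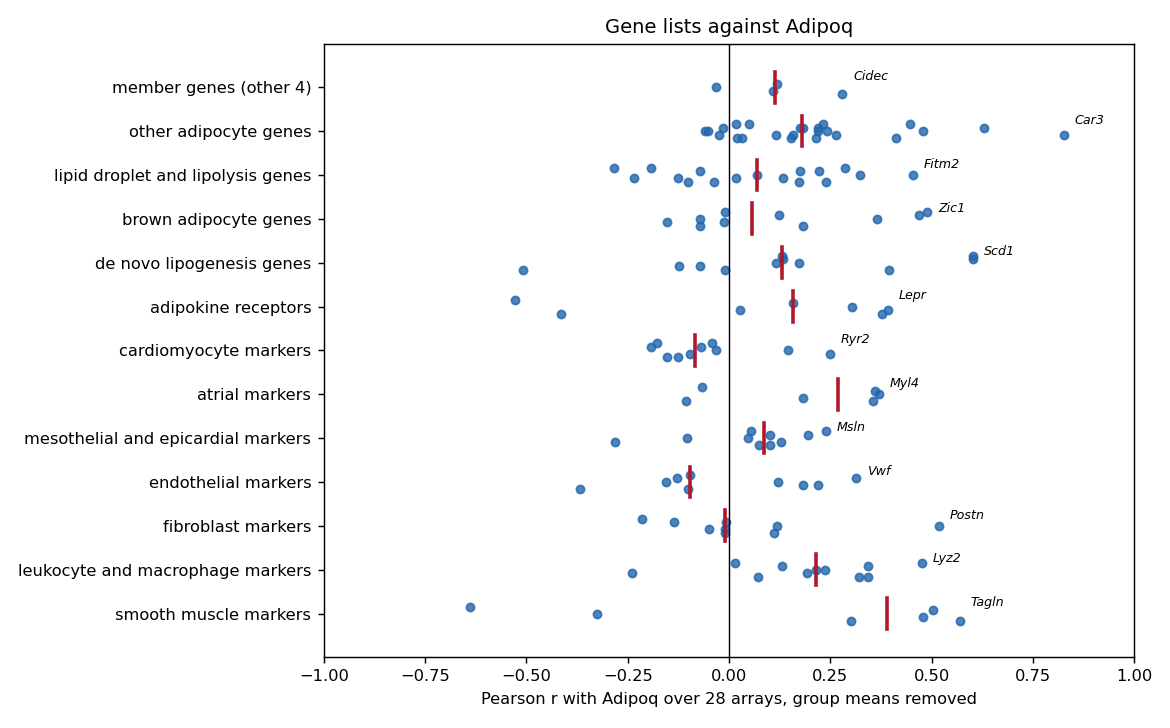
Pearson r with Adipoq over 28 arrays, group means removed, for genes of 13 lists, with 1 point per gene, a red line at the list's median and the name of the gene with the highest r. Car3 lies at 0.83, the other adipocyte genes have a median of 0.18, and the other 4 hormone and droplet genes lie between -0.03 and 0.28.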

How the data were processed

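Biotin-labelled RNA of 28 frozen mouse hearts was read on 1-colour arrays, per the labels' protocols. Each deposited value is a linear signal intensity of a probe set. RMA is named in the submitters' processing notes, but every array had a mean of 250.0 after 2% trimming at both ends, so the values were treated as scaled signals. The software that scaled them is not given in the sources used here.

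Before taking log2, values under 0.1 (the smallest above 0) were set to it, which touched 3 zeros. Of 45101 probe sets, 64 array controls were left out. A limma model (version 3.58.1, R 4.3.3) of the 4 groups was fitted over 28 arrays, two-sided, with Benjamini-Hochberg adjustment over 45037 probe sets and a threshold of 0.05. The Adipoq slope was fitted with groups in the model. Pair correlations used 100000 permutations in Python. The number of arrays limits the precision. The fits were tested on simulated data.

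A gene was represented by its brightest probe set with 1 symbol. Named genes were all those of the list, the 12 most and 5 least like Adipoq above the 40th percentile of the mean, and up to 4 with the smallest p of each list. Members and lists were chosen with earlier results of these data known. The design counted each animal as a separate sample. With Cfd and Plin1 not analysed, 10 pairs were left. Replicate numbers were not taken as pairs. Alternatives were a pseudocount of 16, a filter on dim probe sets, quantile normalization, median centring, eBayes with trend, array weights, a replicate block, and Xist and atrial covariates. Further ones were the mean of a gene's probe sets, only the groups compared, Retn as index and leaving out each array. The actin ratio covariate and the arrays least like their groups were chosen after seeing the data.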

Additional observations from a re-analysis of the deposited data

Results flagged for a closer look

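Signals of the 5 genes were searched for arrays far from the rest of their group, in 24 sets of 7 arrays (6 probe sets in 4 groups), and chance marks about 1 in 20 such sets. Lipe was far below the other treated control hearts in replicate 3, at 363.1, where the group median was 518. Cidec was far below the other treated control hearts in replicate 6, at 3.3, where the group median was 25. Retn was far below the other untreated control hearts in replicate 7, at 32.3, where the group median was 104.4.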

How the results depend on the processing

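No gene of the 5 passed the threshold over all probe sets in any comparison under any of the alternatives, and the lowest adjusted p of a member was 0.323 (limma). Replicate numbers, which the labels tie to no shared source, were not taken as pairs, since 1 of 42 same-number correlations was over 0.1. The data hint at something shared, as 13 of 28 arrays correlated best with their own number and the same-number mean was above the other-number mean in all 6 pairs of groups (0.0042 to 0.035). Replicate 7 was also the array least like the others in each of the 4 groups. Each number occurs in every group, so the number as a block cannot move a group difference. The Adipoq difference in del337TR was therefore -1.30 with or without it. With the block, the probe sets that followed Adipoq fell to 0, against 3 without it. That count was also 0 with the mean of a gene's probe sets, without the 4 arrays least like their groups, with the actin ratio and with Retn as index, and 0 to 4 when 1 array was left out. Cfd as index was not run, since it had no named probe set. The cause was not tested for any of these.

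These values changed sign, and the cause was not tested. With a pseudocount of 16 the log2 difference of Lep in treated del337TR was -0.012 and that of Cidec in treated controls -0.059, and Cidec with Lep had r = 0.020 and Lipe with Lep 0.048. With the actin ratio these 2 differences were -0.093 and -0.084, and the Lipe slope was 0.0052. The mean strain difference of Adipoq was -0.018 after quantile normalization and -0.15 with the atrial covariate. The difference of WY14643 effects for Lipe was 0.063 with the mean of its probe sets. Without the 4 arrays, Retn in treated controls was -0.14, Lep between untreated strains -0.20, and Retn with Lep r = -0.093. Without the 2 arrays farthest from the median the Lipe slope was 0.057, Adipoq with Lipe had r = 0.18 and Retn with Lep -0.0056. With group means kept r was 0.14 for Adipoq with Lipe, 0.068 for Retn with Cidec and 0.086 for Cidec with Lipe. With the replicate block Lipe with Lep had r = 0.016.

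Leaving out 1 array at a time gave ranges from -0.15 to 0.29 for Lep in treated del337TR, -0.44 to 0.48 for Cidec and -0.12 to 0.30 for Retn in treated controls, -0.037 to 0.42 for Lep between untreated strains, and -0.081 to 0.20 for the mean strain difference of Adipoq. Slopes on Adipoq ranged from -0.056 to 0.23 for Retn, -0.061 to 0.028 for Lipe, -0.034 to 0.27 for Lep and 0.96 to 1.14 for Car3. Pair correlations ranged from -0.068 to 0.35 for Adipoq with Retn, -0.17 to 0.092 for Adipoq with Lipe, -0.023 to 0.21 for Adipoq with Lep, -0.11 to 0.098 for Cidec with Lep and -0.12 to 0.060 for Lipe with Lep. Of the 763 values under other alternatives 720 counted as unchanged, as did 1765 of 1848 values with 1 array left out. Some of these values could not change, such as a difference between 2 groups when an array of another group was left out. An estimate counted as unchanged if it kept its direction and its side of the threshold. A small change in a count, such as 3 to 2 for the difference of WY14643 effects, also counted as unchanged. The values include 291 counts of hormone and droplet genes passing the threshold in a comparison, which were all 0. Signal near background limits what Cidec and Lep can show. The share of background was also not tested for Adipoq, at percentile 47.6.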
